A study of Homo sapiens with 33 samples.

Results

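The smooth muscle contractile genes examined here are MYL9, MYLK, ACTA2, ACTG2, TAGLN, CNN1, CALD1, LMOD1, TPM1 and TPM2, which are 10 of the 29744 genes in the RNA-seq tables of a panel of high-grade serous ovarian carcinoma cell lines. The set was chosen by the level of MYL9, which was read at 0 counts in every library of the cisplatin-resistant line OVCAR4 ResB while its sensitive counterpart OVCAR4 had it at a high level. The other 9 genes were then added by name, as genes of the same contractile apparatus, to see whether they follow MYL9. All 10 genes had counts in some library. The level of MYL9 in the OVCAR4 family is therefore a description and carries no test, and the other genes in the contrast of OVCAR4 ResB with OVCAR4 are described by their values alone.

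The panel held 11 cell lines with 3 libraries each, 33 in all, made from poly(A) RNA and deposited as estimated counts and as TPM, a level per transcript length scaled to the same total in each library (not to be confused with the tropomyosin genes TPM1 and TPM2). The lines fell into 4 families, in which 1 line, the parent or the earlier one, was sensitive. The sensitive lines were OVCAR3, OVCAR4, PEA1 and PEO1. OVCAR3 and OVCAR4 each had resistant derivatives ResA and ResB, the line after PEA1 was PEA2, and those after PEO1 were PEO4 and PEO6. ResA and ResB were independent lines selected by repeated cisplatin pulses at rising dose and then kept without the drug. In the PEA and PEO families the lines came from the same patient before and after resistance arose in the clinic. No line was under cisplatin when RNA was taken, as far as the methods say, each resistant model is a single line, and the lines of a family shared a medium, which the PEA and PEO families also had in common. The roles of sensitive and resistant were taken from the study text.

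Smooth muscle contracts when the regulatory light chain of myosin II is phosphorylated by myosin light chain kinase, so that myosin pulls on actin filaments that are dressed with tropomyosin, calponin, caldesmon and transgelin. Many of these genes share a control element, the CArG box, which binds serum response factor (SRF) together with myocardin or its relatives MRTFA and MRTFB, the latter being released by actin polymerisation. Outside muscle the same genes are known from myofibroblasts and from carcinoma cells with a mesenchymal character, while most cells rely on the non-muscle light chains MYL12A and MYL12B.

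The CArG box was searched in the RefSeq promoter windows of GRCh38.p14, which run from 250 bases before to 50 bases after each transcript start, because it is the element that joins these genes to SRF. Of the 10 genes, 8 were matched to 13 windows, with no entry for MYL9 and TAGLN. The search used CC, 6 letters each A or T, and GG, a pattern that reads the same on both strands. It was present in 2 of the 13 windows, from 2 of the 8 genes, and in 1.29% of all 35116 windows and 1.60% of all genes with a window. The ACTG2 window held 2 boxes, starting 110 and 73 bases before the transcript start on chromosome 2, forward strand, at chr2:73892873-73892969. The MYLK window held 1 box, 94 bases before an internal start near the 3′ end of the gene on chromosome 3, reverse strand, at chr3:123620608-123620667. Capitals mark the boxes.
ACTG2: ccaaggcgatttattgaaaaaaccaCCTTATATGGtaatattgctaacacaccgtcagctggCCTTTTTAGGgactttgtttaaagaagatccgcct
MYLK: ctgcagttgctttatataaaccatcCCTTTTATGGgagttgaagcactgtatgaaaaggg
A second motif, the MCAT element CATTCC read on either strand, is bound by TEAD factors. It stood in 5 of the 13 windows, from 4 of the 8 genes, and in 14.0% of all windows and 16.7% of all genes. A match is only a run of letters in these windows.

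Library depth ran from 18059000 to 43394000 estimated counts. The share of counts on mitochondrial ribosomal RNA ranged from 2.30% ± 0.478 (SD, n = 3) in PEO1 to 10.6% ± 4.94 in OVCAR4, so it was highest in the line with the most MYL9, and its part in the results was not tested. The summed level of 6 epithelial markers was between 2717 and 6783 TPM in 10 of the 11 lines. PEA1 stood apart with 352 TPM ± 21.3, though 5 of the 6 markers reached 1 TPM there. The sum of 3 ovarian serous carcinoma markers was 77.3 TPM ± 12.9 in PEA1, within the 61.5 to 331 TPM of the line means. Of 9 smooth muscle lineage markers outside the 10 genes, 1 to 3 reached 1 TPM in a line, with a summed level of 4.69 to 29.7 TPM, highest in PEA1. MYH11, the smooth muscle myosin heavy chain, stayed at or below 0.0469 TPM on average in every line, and DES, desmin, at or below 0.250 TPM. Nothing states that the 3 libraries of a line were separate cultures, so p-values measure the spread between these libraries, which may be technical. Levels are given in TPM. Fold changes are log2, the first line over the second, on counts scaled to library size, and a gene is said to rise, fall or be called where the adjusted p of DESeq2 over all genes was under 0.05.

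MYL9, the smooth muscle regulatory light chain (chromosome 20, 36541519 to 36551447, GRCh38.p14), ranged from 0 to 299 TPM over the panel. OVCAR4 had 260.1, 299 and 267 TPM, PEO6 had 189, 296 and 239 TPM, and PEA1 had 189, 216 and 175 TPM. These 3 lines formed the top of the order, and their libraries overlapped from each line to the next. In OVCAR3 the libraries read 42.5, 51.5 and 61.9 TPM, in OVCAR4 ResA 31.7, 32.96 and 38.6 TPM, and in PEO4 25.03, 25.4 and 29.3 TPM. Each of these stood apart from its neighbours in the order. Lower down, OVCAR3 ResB had 10.8, 15.01 and 6.50 TPM, PEA2 had 11.2, 11.9 and 8.39 TPM, and PEO1 had 7.52, 5.92 and 5.12 TPM. OVCAR3 ResB and PEA2 overlapped, and PEO1 lay below PEA2. At the bottom, OVCAR3 ResA had 0.671, 2.10 and 1.70 TPM and OVCAR4 ResB had 0 in each of 3 libraries.

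The direction of MYL9 was thus not the same in the 4 families. It fell in OVCAR3 ResA against OVCAR3, with a log2 fold change of -5.34 ± 0.25 (SE, DESeq2 adjusted p = 3.05e-99), and in OVCAR3 ResB, with -2.42 ± 0.44 (DESeq2 adjusted p = 2.93e-06). As linear ratios of mean normalised counts these were 39.7-fold and 4.92-fold lower. It fell in PEA2 against PEA1 by 17.9-fold, a log2 fold change of -4.14 ± 0.23 (DESeq2 adjusted p = 3.85e-68). In the PEO family it rose, by 4.31-fold in PEO4 (log2 2.13 ± 0.27, DESeq2 adjusted p = 2.88e-14) and by 39.1-fold in PEO6 (log2 5.27 ± 0.24, DESeq2 adjusted p = 8.32e-101), against the same PEO1 libraries. In the OVCAR4 family OVCAR4 ResA lay 11.5-fold below OVCAR4. OVCAR4 ResB lay at least 2049-fold below OVCAR4 and at least 178-fold below OVCAR4 ResA, when each library at 0 is given a floor of 3 counts. In bulk RNA such as this, fewer cells with the transcript and less transcript per cell cannot be told apart.

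**Figure D1:**
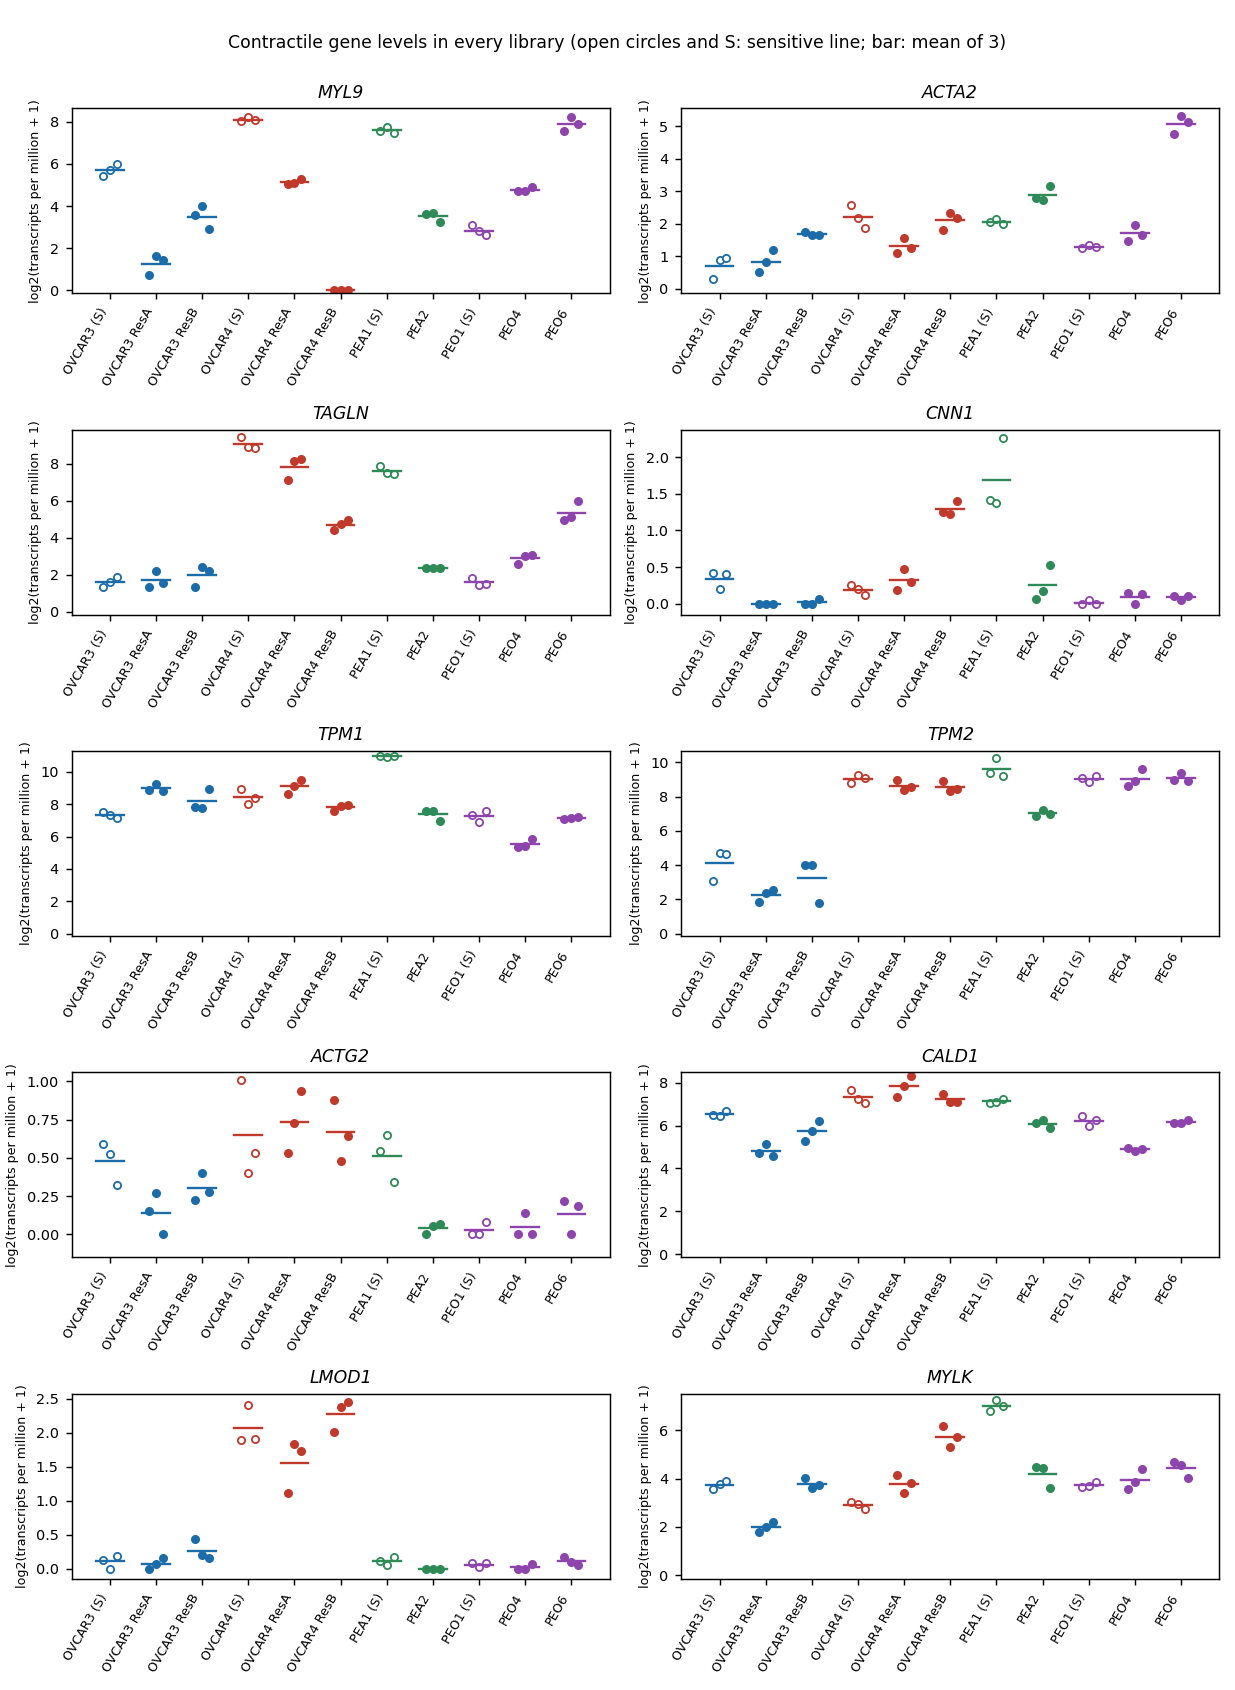
Level of each of the 10 genes in every library, as log2(TPM + 1), with one panel per gene, lines along the horizontal axis, one point per library, open points for sensitive and filled points for resistant lines, and a bar at the mean of 3. MYL9 ranges from 0 in OVCAR4 ResB to 299 TPM in OVCAR4, while ACTG2 stays at or below 1.01 TPM in all 33 libraries.

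In these cells MYL9 was a minor regulatory light chain. Its non-muscle relatives MYL12A and MYL12B, which do the same task in most cells, made up most of the summed level per length of the 3 genes in every line. The share of MYL9 was 12.5% ± 1.97 (SD, n = 3) in OVCAR4, 11.7% ± 3.42 in PEO6 and 6.69% ± 0.112 in PEA1. It was 2.59% ± 0.597 in OVCAR3 and between 0% and 1.38% in the other 7 lines. MYL12A and MYL12B are near-identical, so the split of reads between them is uncertain, but their sum is less so. In OVCAR4 ResB against OVCAR4 the log2 fold changes were -0.50 ± 0.35 for MYL12A and -0.58 ± 0.32 for MYL12B. These are given as values alone, because the set was chosen by this contrast. Neither had a positive fold change there, beside MYL9 at 0. Against OVCAR4 ResA both were lower in OVCAR4 ResB, by log2 values of -0.36 ± 0.10 (DESeq2 adjusted p = 0.00104) and -0.34 ± 0.07 (DESeq2 adjusted p = 2.79e-05). In PEA2 both fell together with MYL9, by -1.72 ± 0.23 for MYL12A (DESeq2 adjusted p = 8.58e-13) and -0.69 ± 0.24 for MYL12B (DESeq2 adjusted p = 0.0119).

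MYLK, the kinase that phosphorylates the light chain (chromosome 3, 123610049 to 123884332), did not follow MYL9 in the OVCAR4 family. It read 7.17, 6.80 and 5.78 TPM in OVCAR4, 16.7, 9.55 and 13.3 TPM in OVCAR4 ResA, and 72.3, 39.2 and 51.9 TPM in OVCAR4 ResB. The 3 lines did not overlap, and the order was the reverse of that of MYL9. The log2 fold change of OVCAR4 ResB over OVCAR4 was 3.11 ± 0.32, an 8.69-fold ratio. OVCAR4 ResB also exceeded OVCAR4 ResA, by 2.06 ± 0.10 (DESeq2 adjusted p = 3.73e-91). MYLK was highest in PEA1 with 111, 151 and 127 TPM and stood at 21.2, 20.6 and 11.3 TPM in PEA2, a fall of 5.91-fold (log2 -2.57 ± 0.29, DESeq2 adjusted p = 4.41e-18). It was lowest in OVCAR3 ResA, with 2.51, 2.98 and 3.55 TPM against 11.04, 12.7 and 13.9 TPM in OVCAR3 (log2 -1.97 ± 0.16, DESeq2 adjusted p = 2.95e-33), and OVCAR3 ResB, at 15.4, 11.2 and 12.2 TPM, overlapped OVCAR3. In PEO4 and PEO6 it did not pass the test, with line means of 14.7 TPM ± 4.65 and 21.1 TPM ± 5.08 against 12.4 TPM ± 0.971 in PEO1. MYLK has transcripts of unequal length, and the mean length behind its TPM values varied 2.52-fold between libraries, from 0.659 to 1.64 of the median within OVCAR4 ResB, whereas the fold changes rest on counts. MYLK-AS1 and other transcripts overlap it, and reads of overlapping genes cannot be told apart here because no strand setting is stated.

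The 2 smooth muscle actins were scarce. ACTA2, the alpha actin of vascular smooth muscle and of myofibroblasts (chromosome 10, 88935074 to 88991337), reached 26.1, 38.3 and 33.6 TPM in PEO6 and not more than 7.88 TPM in any library of another line. PEO1 had 1.37, 1.55 and 1.42 TPM, and the rise in PEO6 was 21.3-fold (log2 4.39 ± 0.30, DESeq2 adjusted p = 4.75e-47). In PEO4, with 1.76, 2.91 and 2.15 TPM, the libraries lay above those of PEO1 without passing the test. ACTA2 rose in PEA2, where MYL9 fell, from 3.14, 3.39 and 2.99 TPM in PEA1 to 5.95, 5.64 and 7.88 TPM (log2 1.20 ± 0.37, DESeq2 adjusted p = 0.00384). Without replicate 1 or replicate 3 that call was lost, with log2 fold changes of 1.27 and 0.95 for ACTA2.

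In the OVCAR4 family ACTA2 read 4.91, 3.48 and 2.64 TPM in OVCAR4, 1.13, 1.92 and 1.40 TPM in OVCAR4 ResA and 2.51, 3.99 and 3.47 TPM in OVCAR4 ResB. OVCAR4 ResB overlapped OVCAR4 in TPM, and ACTA2 was counted in every library of OVCAR4 ResB, where MYL9 was at 0. On counts its log2 fold change was -0.64 ± 0.47, a 1.56-fold lower level, and after rescaling TPM by median of ratios the line means were 4.43 ± 0.891 in OVCAR4 and 2.76 ± 0.237 in OVCAR4 ResB. The ACTA2 gene overlaps FAS, which stood at 3.25 to 51.9 TPM by line. ACTG2, the gamma actin of enteric smooth muscle (chromosome 2, 73893008 to 73919865), had 0 to 24 counts in a library and at most 1.01 TPM. DESeq2 did not call ACTG2 in any of the 7 pairs (5 of which gave it an adjusted p). In PEA2, with 0 to 1 counts against 4 to 12 in PEA1, it was called when the replicate block was left out (DESeq2 adjusted p = 0.0199 for ACTG2).

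TAGLN encodes transgelin (SM22), an actin-binding protein used as an early marker of smooth muscle (chromosome 11, 117199294 to 117207465). Of the other 9 genes it was most like MYL9 over the lines, which include OVCAR4 and OVCAR4 ResB, whose MYL9 levels chose the set. As a description, its Pearson r was 0.60 over the 11 line means of log2(TPM + 1). In the OVCAR4 family it stepped down as MYL9 did, with 690.3, 482 and 468 TPM in OVCAR4, 138, 282 and 305 TPM in OVCAR4 ResA and 20.4, 25.5 and 29.7 TPM in OVCAR4 ResB. The 3 lines did not overlap, and OVCAR4 ResB lay 31.8-fold below OVCAR4 (log2 -5.00 ± 0.30) yet kept a clear level. It was lower in OVCAR4 ResB than in OVCAR4 ResA by -3.24 ± 0.18 (DESeq2 adjusted p = 3.71e-68).

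TAGLN also moved with MYL9 in the families from patients. It fell 43.1-fold in PEA2, from 232, 183 and 176 TPM in PEA1 to 4.28, 4.27 and 4.19 TPM (log2 -5.40 ± 0.26, DESeq2 adjusted p = 1.09e-95). It rose from 2.51, 1.78 and 1.81 TPM in PEO1 to 5.07, 7.17 and 7.43 TPM in PEO4 (log2 1.76 ± 0.40, DESeq2 adjusted p = 7.32e-05) and to 30.4, 33.7 and 63.7 TPM in PEO6 (log2 4.32 ± 0.33, DESeq2 adjusted p = 7.24e-38). In the OVCAR3 family it stood apart from MYL9, being already low in the sensitive line. The libraries read 1.51, 2.09 and 2.77 TPM in OVCAR3, 1.57, 3.65 and 1.96 TPM in OVCAR3 ResA and 1.52, 4.40 and 3.58 TPM in OVCAR3 ResB, and the 3 lines overlapped. TAGLN overlaps PCSK7, which stood at 6.59 to 20.4 TPM by line.

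**Figure D2:**
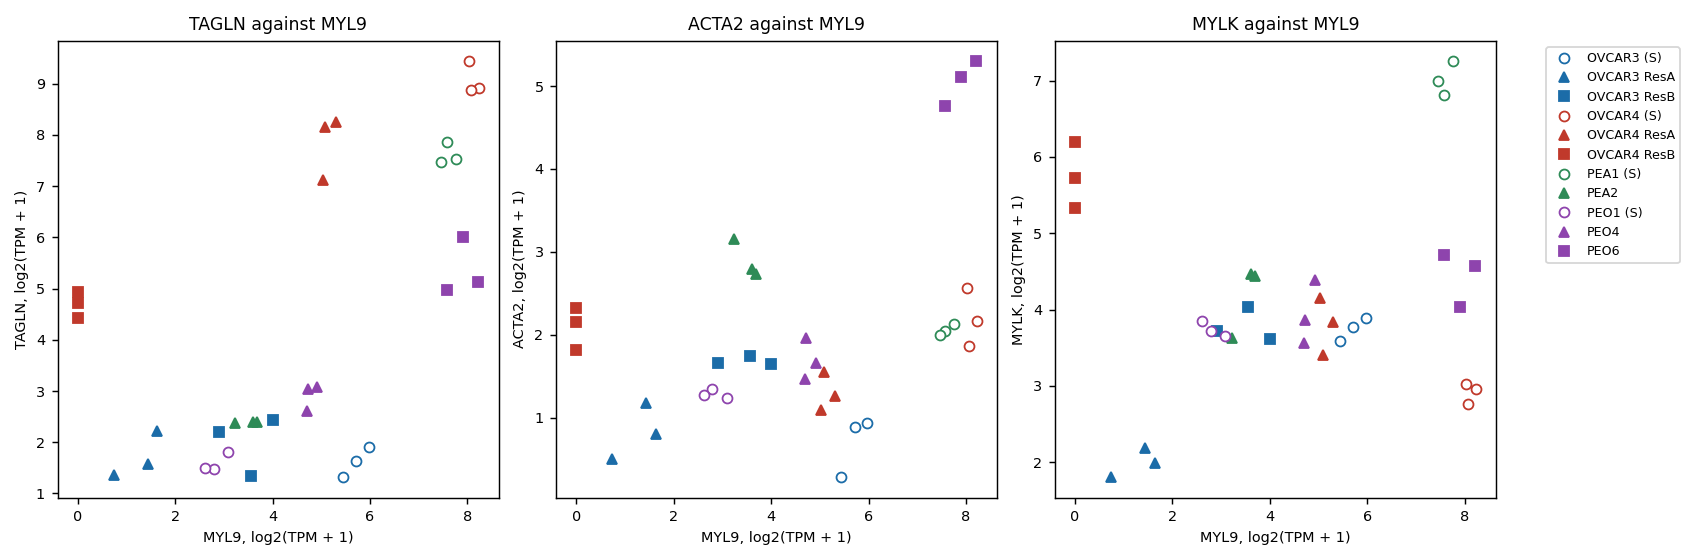
TAGLN, ACTA2 and MYLK against MYL9 in each of the 33 libraries, both axes in log2(TPM + 1), coloured by family, open points for sensitive and filled points for resistant lines. The OVCAR4 ResB libraries sit at 0 for MYL9 but between 20.4 and 29.7 TPM for TAGLN and between 39.2 and 72.3 TPM for MYLK.

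CNN1, calponin, an actin-binding inhibitor of the myosin ATPase and a late marker of smooth muscle (chromosome 19, 11538851 to 11550323), was near the limit of detection in most lines. It had 48, 43 and 77 counts in PEA1 against 1, 4 and 11 in PEA2, a fall of 10.5-fold (log2 -3.70 ± 0.75, DESeq2 adjusted p = 4.61e-06). In OVCAR4 ResB it had 24, 33 and 43 counts, where OVCAR4 had 5, 3 and 2 and OVCAR4 ResA had 3, 9 and 5. OVCAR4 ResB thus lay above both, by a log2 value of 2.90 ± 0.94 over OVCAR4 and of 2.61 ± 0.78 over OVCAR4 ResA (DESeq2 adjusted p = 0.00386), though leaving out any 1 replicate ended the latter call, with adjusted p between 0.0744 and 0.158 for CNN1. OVCAR3 had 10, 3 and 7 counts and OVCAR3 ResA 0 in 3 libraries, at least 2.50-fold lower at the floor of 3 counts (DESeq2 adjusted p = 0.0161, and the call was lost when any 1 replicate was left out). The PEO lines had 0 to 2 counts.

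CALD1 encodes caldesmon, which binds actin and tropomyosin and whose shorter form is made by non-muscle cells (chromosome 7, 134711499 to 134970729). It was present in every line and varied less than the others. It read 89.3, 86.0 and 101 TPM in OVCAR3 against 25.2, 34.1 and 22.9 TPM in OVCAR3 ResA (log2 -1.91 ± 0.13, DESeq2 adjusted p = 2.5e-45). OVCAR3 ResB lay between them at 37.6, 52.4 and 73.3 TPM (log2 -0.92 against OVCAR3, DESeq2 adjusted p = 0.0535). PEA2 had 68.8, 76.9 and 57.9 TPM against 132, 137 and 149 TPM in PEA1 (log2 -0.96 ± 0.21, DESeq2 adjusted p = 2.69e-05). In PEO4 it fell while MYL9 rose, from 85.3, 61.2 and 76.7 TPM in PEO1 to 30.3, 27.3 and 29.4 TPM (log2 -1.31 ± 0.17, DESeq2 adjusted p = 1.56e-13). PEO6 stood at 68.1, 68.4 and 75.0 TPM, within the range of PEO1. In the OVCAR4 family the lines overlapped, with 203, 149 and 134 TPM in OVCAR4 and 179, 136 and 137 TPM in OVCAR4 ResB, a log2 fold change of -0.66 ± 0.33.

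LMOD1, leiomodin, which nucleates actin filaments in smooth muscle (chromosome 1, 201896456 to 201946548), was counted mainly in 1 family. It had 209, 242 and 179 counts in OVCAR4, 75, 158 and 147 in OVCAR4 ResA and 152, 277 and 312 in OVCAR4 ResB, and 0 to 15 counts in any library of the other 8 lines. Its level in OVCAR4 ResB, 3.90 TPM ± 0.756, overlapped the 3.26 TPM ± 0.915 of OVCAR4. It was lower in OVCAR4 ResA than in OVCAR4 (log2 -1.27 ± 0.39, DESeq2 adjusted p = 0.0151). That call was lost with edgeR (adjusted p = 0.091), with limma, without replicate 2 (DESeq2 adjusted p = 0.608), without replicate 3 (DESeq2 adjusted p = 0.470) and in 1 fit of all 33 libraries (DESeq2 adjusted p = 0.198). LMOD1 was higher in OVCAR4 ResB than in OVCAR4 ResA (log2 0.97 ± 0.28, DESeq2 adjusted p = 0.00236). Without replicate 1, 2 or 3 the latter call for LMOD1 was lost, with adjusted p of 0.0568, 0.0761 and 0.090.

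The tropomyosins, which lie along the actin filament and set access for myosin, reached the highest levels of the 10 genes. TPM1 (chromosome 15, 63042747 to 63071915) read 2061, 1979.8 and 1987 TPM in PEA1 and 195, 192 and 125 TPM in PEA2, a fall of 11.1-fold (log2 -3.47 ± 0.21, DESeq2 adjusted p = 3.3e-57). It rose in OVCAR3 ResA, where MYL9 fell, from 179, 160.0 and 143 TPM to 468, 598 and 457 TPM (log2 1.58 ± 0.11, DESeq2 adjusted p = 6.81e-45). It fell in PEO4, where MYL9 rose, from 164, 120.5 and 194 TPM to 40.8, 41.7 and 56.9 TPM (log2 -1.80 ± 0.18, DESeq2 adjusted p = 1.37e-22). TPM1 and MYL9 thus took opposite directions in these 2 pairs. In PEO6 it read 133, 139.8 and 145 TPM, within the range of PEO1. In the OVCAR4 family it read 499, 254 and 335 TPM in OVCAR4, 400.4, 569 and 738 TPM in OVCAR4 ResA and 193, 239.6 and 250.1 TPM in OVCAR4 ResB. OVCAR4 ResB lay below both lines, by -1.17 ± 0.30 against OVCAR4 and by -1.32 ± 0.14 against OVCAR4 ResA (DESeq2 adjusted p = 2.78e-20).

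TPM2, the beta tropomyosin (chromosome 9, 35681993 to 35690056), separated the OVCAR3 family from the rest. It had 7.27, 25.3 and 23.7 TPM in OVCAR3, 2.65, 4.09 and 4.82 TPM in OVCAR3 ResA and 14.7, 15.2 and 2.39 TPM in OVCAR3 ResB, where the other 8 lines had 118 TPM or more in every library. It fell in OVCAR3 ResA (log2 -2.30 ± 0.26, DESeq2 adjusted p = 3.48e-17). It also fell in PEA2, from 675, 1205 and 593 TPM in PEA1 to 118, 149.8 and 125 TPM (log2 -2.50 ± 0.27, DESeq2 adjusted p = 1.46e-18). In OVCAR4 ResB, with 487, 322 and 354 TPM, it overlapped OVCAR4, with 443, 616 and 536 TPM (log2 -1.03 ± 0.44). PEO1 had 548, 467 and 578 TPM, PEO4 398, 473 and 791 TPM and PEO6 499, 658 and 479 TPM, and these 3 lines overlapped without passing the test.

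The make-up of the tropomyosins differed between lines, while the 4 genes TPM1 to TPM4 summed to 785 TPM ± 121 in OVCAR3 and 1022 TPM ± 134 in OVCAR3 ResA. TPM1 made up 20.6% ± 0.894 (SD, n = 3) of that sum in OVCAR3 and 49.8% ± 5.21 in OVCAR3 ResA, while TPM4, a tropomyosin of non-muscle cells, went from 39.9% ± 4.06 to 13.5% ± 1.73. In PEA1 TPM1 made up 51.9% ± 1.52, and in PEA2 13.4% ± 1.02. In OVCAR4 ResB TPM4 was lower than in OVCAR4 ResA as well (log2 -1.03 ± 0.12, DESeq2 adjusted p = 3.48e-16).

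**Figure D3:**
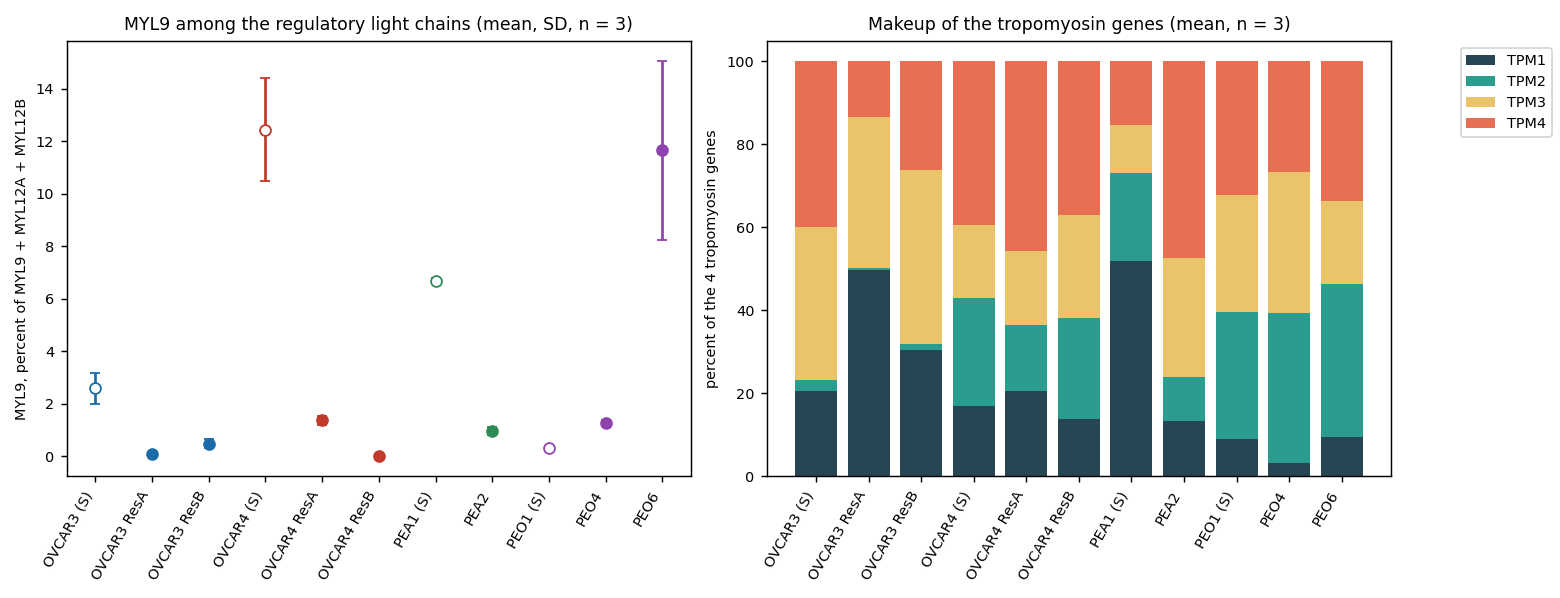
Share of MYL9 in the summed level of MYL9, MYL12A and MYL12B by line (percent, mean with SD of 3 libraries) and the make-up of the 4 tropomyosins by line (percent of their summed TPM, mean of 3 libraries). MYL9 reaches 12.5% in OVCAR4 and 11.7% in PEO6, and TPM1 holds 49.8% of tropomyosin in OVCAR3 ResA and 51.9% in PEA1.

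In OVCAR4 ResB the values of the contractile genes lay on both sides of OVCAR4. Of the 9 genes other than MYL9, 2 passed the threshold in the higher direction (MYLK and CNN1) and 2 in the lower direction (TAGLN and TPM1), beside 9.09% higher and 8.77% lower of all genes tested in that contrast. The rule used this contrast, so nothing is read from those counts. Their median log2 fold change was -0.64, where that of all genes was -0.0050. Against OVCAR4 ResA, which shares its libraries of OVCAR4 ResB with the contrast that singled out MYL9, 4 of 9 genes were higher (MYLK, CNN1, ACTA2 and LMOD1) and 2 lower (TAGLN and TPM1), beside 16.2% and 16.5% of all genes, with a median of -0.07. The ACTA2 difference was 1.18 ± 0.43 (DESeq2 adjusted p = 0.0218) and was lost without replicate 1, 2 or 3, with adjusted p from 0.128 to 0.379, and without replicate 2 or 3 the count over the 9 genes was 3.

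In OVCAR4 ResA against OVCAR4, 8 of the 9 genes other than MYL9 were tested. MYLK was higher (log2 1.05 ± 0.33, DESeq2 adjusted p = 0.0159), and TAGLN (-1.77 ± 0.33, DESeq2 adjusted p = 5.77e-06), ACTA2 (-1.82 ± 0.54, DESeq2 adjusted p = 0.0114) and LMOD1 were lower, beside 6.68% higher and 5.22% lower of all genes, with a median of -0.59. edgeR called 0 of these genes after adjustment (before adjustment, 1 higher and 3 lower passed 0.05, with no share of all genes at hand). Without replicate 2 or without replicate 3 the DESeq2 count was 1. The median shift of all well-counted genes on the TPM scale was 0.45 in OVCAR4 ResA and 0.49 in OVCAR4 ResB (log2), so TPM levels in these lines read higher against OVCAR4 than the count-based fold changes do.

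In PEA2 against PEA1 all 10 genes were tested, and 7 were lower (MYL9, TAGLN, TPM1, TPM2, MYLK, CNN1 and CALD1) and 1 higher (ACTA2), beside 23.8% and 23.3% of all genes. Their median was -3.58, or -3.02 with LMOD1 at its bound, against -0.022 for all genes. LMOD1 had 3 to 7 counts in PEA1 and 0 in PEA2, at least 1.82-fold lower at the floor, and was called when the replicate block was left out (DESeq2 adjusted p = 0.0163 for LMOD1). The same pair differed in cell-type markers. The epithelial sum rose from 352 TPM ± 21.3 in PEA1 to 4300.5 TPM ± 144 in PEA2, with 6 of 6 markers higher, and the sum of 9 fibroblast markers was 95.3 TPM ± 23.6 in PEA1, with 2 of the 9 at 1 TPM or more, and 0.965 TPM ± 0.246 in PEA2, with none. Their part in the fall of the contractile genes was not tested.

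In OVCAR3 ResA against OVCAR3 all 10 genes were tested, and 5 were lower (MYL9, MYLK, CALD1, TPM2 and CNN1) and 1 higher (TPM1), beside 22.9% and 22% of all genes. The median was -1.94, or -1.62 with CNN1 at its bound, against -0.015 for all genes. In OVCAR3 ResB, compared with the same OVCAR3 libraries, 9 genes were tested and MYL9 was the gene called (lower), beside 3.57% lower and 4.1% higher of all genes, with a median of 0.21. At an unadjusted p under 0.05, 2 were higher and 2 lower in DESeq2 and likewise in edgeR. No share of all genes is at hand for these counts, so nothing is read from them. Without the replicate block the count in OVCAR3 ResB was 3 rather than 1, with TPM1 (log2 0.85) and CALD1 (log2 -0.89) added. Between the resistant lines, OVCAR3 ResB had more MYL9 (log2 2.95 ± 0.56, DESeq2 adjusted p = 4.34e-06), MYLK (2.17 ± 0.36, DESeq2 adjusted p = 6.11e-08) and CALD1 (0.99 ± 0.33, DESeq2 adjusted p = 0.023) than OVCAR3 ResA, 3 of 8 genes tested beside 7.47% higher and 6.04% lower of all genes, with a median of 1.47. CALD1 lost that call without replicate 1 or 2 (adjusted p = 0.132 and 0.439 in DESeq2), and without replicate 3 the count was 5, with TPM1 and TPM2 added.

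In the PEO family 8 of the 10 genes were tested in each comparison. PEO4 had MYL9 and TAGLN higher and TPM1 and CALD1 lower than PEO1, beside 16.6% and 16.7% of all genes, with a median of 0.05. PEO6 had MYL9, TAGLN and ACTA2 higher than the same PEO1 libraries, beside 21.2% higher and 20.3% lower of all genes, with a median of 0.69. None was lower in PEO6, also at an unadjusted p under 0.05 (no share of all genes at hand), in DESeq2 and in edgeR. PEO6 exceeded PEO4 in 5 genes, MYL9 (log2 3.13 ± 0.30, DESeq2 adjusted p = 7.55e-23), ACTA2 (3.61 ± 0.34, DESeq2 adjusted p = 6.5e-24), TAGLN (2.57 ± 0.33, DESeq2 adjusted p = 6.44e-13), TPM1 (1.65 ± 0.31, DESeq2 adjusted p = 2.54e-06) and CALD1 (1.22 ± 0.28, DESeq2 adjusted p = 0.000295), beside 9.86% higher and 8.33% lower of all genes, with a median of 2.11. CALD1 lost the call without replicate 2, at an adjusted p of 0.138. The fibroblast marker sum was 188 TPM ± 28.6 in PEO1, 114 TPM ± 18.6 in PEO4 and 115 TPM ± 20.7 in PEO6. Of the 9 markers, 3 reached 1 TPM in PEO1, 2 in PEO4 and 2 in PEO6, and single markers went both ways. In PEO4 2 of 8 tested were higher and 2 lower (16.6% and 16.7% of all genes), and in PEO6 2 of 7 were higher and 3 lower (21.2% and 20.3%). The part of these markers in the changes of the PEO family was not tested.

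**Figure D4:**
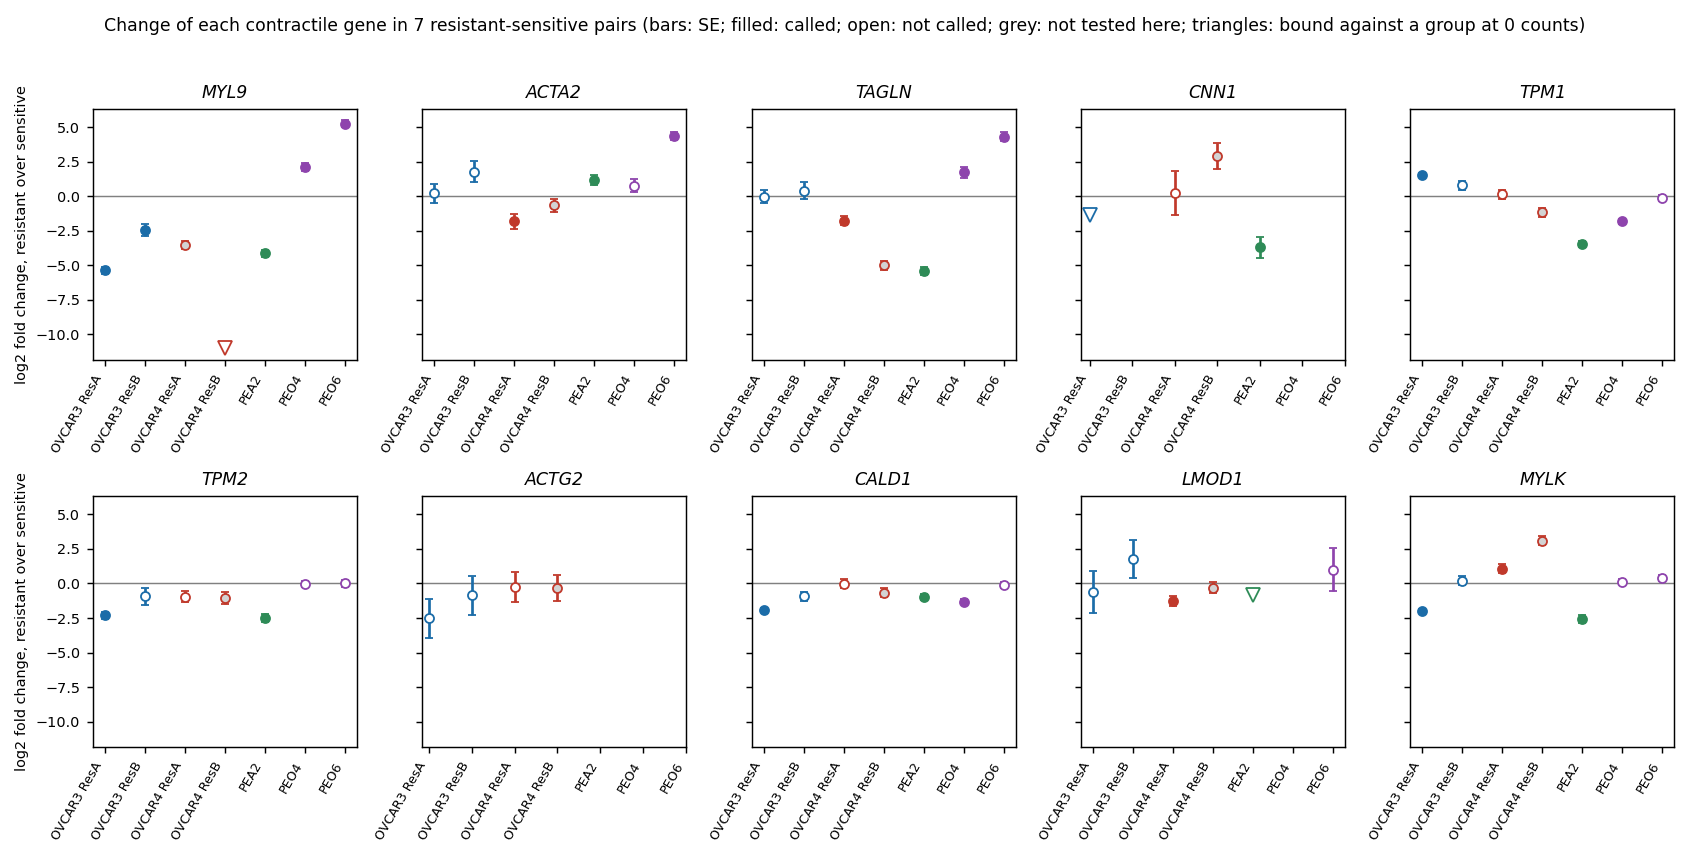
Log2 fold change of each gene in the 7 pairs, resistant over sensitive, with SE bars from DESeq2. Filled points passed the threshold, and open points did not or, for CNN1 in OVCAR4 ResA, had no adjusted p. Grey points, for OVCAR4 ResB and for MYL9 in OVCAR4 ResA, are shown as values without a test. Triangles are bounds against a group at 0 counts. No point is drawn in other cases where a line had 3 counts or fewer in every library. MYL9 lies below 0 in 5 pairs and above it in PEO4 and PEO6, and TAGLN spans from -5.40 in PEA2 to 4.32 in PEO6.

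Across all lines, a test of the 7 resistant against the 4 sensitive lines called few genes of any kind. With each line as 1 unit, DESeq2 called 0 of the 9 genes other than MYL9, beside 0.13% higher and 0.156% lower of all genes, and edgeR also called 0. A count of 0 is near that share of all genes, so nothing is read from it. The median over the 9 was -0.79, where that of all genes was 0.0065. Before adjustment 2 passed 0.05 in both tools, in the lower direction, with no share of all genes at hand. In DESeq2 these were TPM2 (DESeq2 adjusted p = 0.374) and CALD1. Without replicate 1, TPM2 was called (log2 -1.59, DESeq2 adjusted p = 0.0399). The change did differ between the 7 pairs for 9 of 9 genes in DESeq2, beside 70.3% of all genes. In edgeR it differed for 8 of 9, where ACTG2 had an adjusted p of 0.0705, with no share of all genes at hand. Most genes passed in DESeq2, and OVCAR4 ResB is among the 7 pairs, so these counts are not read as a trait of the contractile genes. By pair, leaving aside OVCAR4 ResB, whose contrast the rule used, TAGLN was higher in PEO4 and PEO6 and lower in OVCAR4 ResA and PEA2. ACTA2 was higher in PEA2 and PEO6 and lower in OVCAR4 ResA. CALD1 was lower in OVCAR3 ResA, PEA2 and PEO4, with no pair higher. The OVCAR4 ResA calls of TAGLN and ACTA2 were lost with edgeR, and pairs of a family share the libraries of its sensitive line.

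The known regulators of these genes were SRF and 6 cofactors. Of these 7 genes, 6 were tested in PEO4, with 2 higher and 1 lower, beside 16.6% and 16.7% of all genes. In PEO6 1 of 6 was higher and 2 lower (21.2% and 20.3%). The medians were -0.10 and -0.17. In OVCAR4 ResB against OVCAR4 ResA 2 of 6 were higher and 1 lower (16.2% and 16.5%). In OVCAR3 ResB against OVCAR3 ResA 1 of 6 was higher (7.47%), and in PEO6 against PEO4 1 of 6 was lower (8.33%). In OVCAR3 ResA 1 of 6 was higher and 2 lower (22% and 22.9%), and in PEA2 2 of 7 were higher (23.3%). By median over the 7 pairs, SRF was lowest (log2 -0.34) and MRTFB highest (0.59) of the 6 genes with 50 normalised counts. Not every call is named below. SRF was higher in PEO4 (log2 0.49 ± 0.19, DESeq2 adjusted p = 0.028) and in PEO6 (0.88 ± 0.23, DESeq2 adjusted p = 0.000483), the pairs in which MYL9 and TAGLN rose. It was lower in OVCAR3 ResA (-0.37 ± 0.14, DESeq2 adjusted p = 0.0171) and lower in OVCAR4 ResB than in OVCAR4 ResA (-0.39 ± 0.12, DESeq2 adjusted p = 0.0047). MRTFA, listed under its older symbol MKL1, was lower in OVCAR3 ResA (-0.82 ± 0.20, DESeq2 adjusted p = 0.000126) and higher in OVCAR4 ResB than in OVCAR4 ResA (0.41 ± 0.12, DESeq2 adjusted p = 0.00312). MRTFB, listed as MKL2, was higher in PEA2 (1.49 ± 0.30, DESeq2 adjusted p = 4.61e-06). ELK3, a ternary complex factor that partners SRF, was higher in OVCAR3 ResA (0.69 ± 0.18, DESeq2 adjusted p = 0.000475) and lower in PEO4 (-0.62 ± 0.16, DESeq2 adjusted p = 0.000647) and PEO6 (-2.34 ± 0.21, DESeq2 adjusted p = 3.13e-26), so it moved against SRF in these 3 pairs. Its relatives ELK1 and ELK4 had log2 changes of not more than 0.72 in size in the 7 pairs. MYOCD, the myocardin of smooth and cardiac muscle, had 132 to 369 counts in the PEA2 libraries (1.66 TPM ± 0.794) and 0 counts in every library of the other 10 lines, and PEA2 was a line in which most contractile genes fell.

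Other known targets of SRF and MRTF were mostly lower in the PEO family, where MYL9 and TAGLN rose. Of 12 such genes, 8 were lower and 1 higher in PEO4, beside 16.7% and 16.6% of all genes, and 7 were lower in PEO6, beside 20.3%. In OVCAR3 ResA 5 were lower and 3 higher (22.9% and 22%), and in OVCAR3 ResB 2 were higher (4.1%). In OVCAR4 ResA 2 were higher (6.68%), and in PEA2 3 were lower and 2 higher (23.8% and 23.3%). In OVCAR4 ResB 2 were lower and 3 higher (8.77% and 9.09%), from which nothing is read because the rule used that contrast. In OVCAR4 ResB against OVCAR4 ResA 4 were lower and 2 higher (16.5% and 16.2%), in OVCAR3 ResB against OVCAR3 ResA 1 was lower and 1 higher (6.04% and 7.47%), and in PEO6 against PEO4 2 were lower and 1 higher (8.33% and 9.86%). FILIP1L, a filamin-interacting protein, was highest by median over the pairs and PDLIM7, a PDZ and LIM protein of actin filaments, was lowest, at log2 1.69 and -0.82. FILIP1L fell in PEO6 (-4.72 ± 0.39, DESeq2 adjusted p = 4.48e-32), where MYL9 rose, and rose in PEA2 (2.77 ± 0.32, DESeq2 adjusted p = 3.64e-17), where MYL9 fell.

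The paralogs of the 10 genes, a list of 19, hold genes of non-muscle cells such as MYL12A, MYL12B, MYL6, TPM3, TPM4 and CNN3 and genes of striated muscle such as ACTA1, ACTC1, LMOD2 and MYLK2. In PEA2 11 of the 16 tested were lower, beside 23.8% of all genes, and in OVCAR3 ResA 7 of 17, beside 22.9%. In PEO4 6 of 16 were lower and 1 higher (16.7% and 16.6% of all genes), and in PEO6 4 of 15 were lower and 2 higher (20.3% and 21.2%). In OVCAR4 ResB 1 of 15 was lower (8.77%), from which nothing is read because the rule used that contrast. Between resistant lines, 8 of 15 were lower in OVCAR4 ResB than in OVCAR4 ResA (16.5%), 2 of 15 were higher in OVCAR3 ResB than in OVCAR3 ResA (7.47%), and 2 of 16 were lower and 1 higher in PEO6 than in PEO4 (8.33% and 9.86%). CNN3, an acidic calponin found in many cells, was lower in PEA2 (-0.80 ± 0.21, DESeq2 adjusted p = 0.000526) and in OVCAR3 ResA (-1.05 ± 0.11, DESeq2 adjusted p = 9.59e-19). MYL6B, an alkali light chain, had the lowest median of the list, at -0.67 over the pairs.

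Of the 3 non-muscle myosin heavy chains, MYH9 and MYH10 were the highest and the lowest, with medians of 0.16 and -0.02 over the pairs.

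Over the 11 line means, the genes whose log2(TPM + 1) was most like that of MYL9 were SNORD87 (r = 0.81), NRSN2, a membrane protein of neurons (0.80), CDK6, a cell cycle kinase (0.78), TRNS2 (0.75) and TRNF (0.73), of 14206 genes ranked. The lines share families and preparation, and they include OVCAR4 and OVCAR4 ResB, whose MYL9 levels chose the set, so these values are descriptions. NRSN2 was, like MYL9, low in OVCAR4 ResB (0.787 TPM ± 0.292, against 18.2 TPM ± 1.17 in OVCAR4) and in OVCAR3 ResA (1.03 TPM ± 0.294, against 17.1 TPM ± 0.832 in OVCAR3). SNORD87 is a small nucleolar RNA and TRNS2 and TRNF are mitochondrial transfer RNAs, which poly(A) libraries capture poorly. The mean of SNORD87 came from a single library in each line that had it (4.71 TPM ± 8.15 in PEA1, 5.08 TPM ± 8.79 in PEO6). TRNS2 and TRNF also varied widely, at 306 TPM ± 382 and 826 TPM ± 826 in PEO6. TAGLN ranked 55, ACTA2 413 (r = 0.41) and TPM2 446 (r = 0.40), while CALD1 (0.31), TPM1 (0.17), MYLK (0.15), CNN1 (0.03) and LMOD1 (-0.09) were less like it. Among the other pairs of the 10 genes, several were more alike than any pair with MYL9. The highest were CNN1 and MYLK (r = 0.88) and ACTG2 and CALD1 (0.83), though CNN1 reached 1 TPM in 2 lines and ACTG2 in 0. TAGLN was more like CALD1 (0.74), ACTG2 (0.69), LMOD1 (0.63) and TPM2 (0.62) than like MYL9.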

How the data were processed

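RNA-seq of 33 libraries (11 lines, 3 each) was analysed. The authors aligned and quantified reads with an nf-core/rnaseq workflow on GRCh38 and deposited Salmon gene tables of estimated counts (88.4% of the values were whole) and of TPM, where the TPM column is scaled to transcript length. Poly(A) libraries were sequenced as 1 pool over several runs. Strand settings are not given in the sources used here. Depth was 18059000 to 43394000 counts per library, which limits genes of a few counts.

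Estimated counts were rounded. DESeq2 1.42.0 (R 4.3.3) was fitted for each pair with line and replicate number as terms over all genes, as in the study, with Benjamini-Hochberg adjusted p under 0.05 as the call. A gene is counted as tested where DESeq2 gave an adjusted p. Line-level comparison used counts summed per line, and the difference between the 7 pairs a likelihood ratio test. edgeR 4.0.16, limma 3.58.1 on log2(TPM + 1) or log2(TPM + 0.1), TMM factors, a filter of 10 counts in 3 libraries, no replicate block, 1 fit of all libraries and leaving out each replicate were alternatives, with edgeR for the difference between pairs added after seeing the data. Scripts were tested on simulated data, in which the likelihood ratio test of DESeq2 gave more false calls than its threshold allows, so edgeR is printed beside it.

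The replicate numbers were checked for pairing. The correlations of same-numbered libraries were all over 0.1 in 2 of 10 comparisons, OVCAR3 ResA against OVCAR3 (0.674, 0.244 and 0.463) and OVCAR4 ResB against OVCAR4 ResA (0.726, 0.546 and 0.581). The block was kept because the study used it.

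The members and gene lists were chosen with earlier results of these data known. A single one of the fixed gene lists is not reported here. Genes named from the other lists are the highest and lowest by median over the 7 pairs among those with 50 normalised counts, all genes of the list of SRF and its cofactors are covered, the 5 genes most like MYL9 are named by Pearson r among genes with a mean of at least 1 TPM, and MYH11, DES, FHL1, FHL2, MYL12A, MYL12B and TPM4 were named after their values were seen. Promoter sequences and positions are from RefSeq (GRCh38.p14). Figures were drawn with matplotlib 3.10.9.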

Additional observations from a re-analysis of the deposited data

Results flagged for a closer look

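Each gene below is listed because its change in resistance differed between lines, by a test of the difference itself. No group here is large enough for a check of single libraries that stand apart, since each line had 3.

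Resistant lines of 1 family that share a sensitive line differed directly (log2, DESeq2, first line over second). In OVCAR3 ResB over OVCAR3 ResA the values were 2.95 for MYL9, 2.17 for MYLK and 0.99 for CALD1. In OVCAR4 ResB over OVCAR4 ResA they were -3.24 for TAGLN, -1.32 for TPM1, 2.06 for MYLK, 2.61 for CNN1, 1.18 for ACTA2 and 0.97 for LMOD1. In PEO6 over PEO4 they were 3.61 for ACTA2, 3.13 for MYL9, 2.57 for TAGLN, 1.65 for TPM1 and 1.22 for CALD1.

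Over the 7 pairs, the test of a difference between the changes was passed in both DESeq2 and edgeR by 8 genes. In DESeq2 70.3% of all genes passed it, so passing is no trait of these genes alone. The 7 pairs include OVCAR4 ResB against OVCAR4, the contrast that chose the set. The distance between the lowest and the highest log2 fold change was 9.73 for TAGLN, 6.21 for ACTA2, 5.68 for MYLK, 5.05 for TPM1, 2.50 for TPM2 and 1.89 for CALD1. It was 8.15 for CNN1 and 6.58 for LMOD1, where the extremes rest on fitted values of lines at or near 0 counts and are no measure of size. OVCAR4 ResB against OVCAR4 gave the highest value for MYLK, at 3.11, and for CNN1, at 2.90.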

How the results depend on the processing

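Of 1038 fold changes of the 10 genes under other settings, 942 kept their direction and side of the threshold, 63 were no longer called, 33 became called and 0 called changes turned sign, while 43 changes without a call did. TMM factors changed no call. The count of called genes moved as follows. In OVCAR3 ResB against OVCAR3 (1 gene) it was 3 without the replicate block, 2 with the filter on low counts, 0 with limma on log2(TPM + 1) and 0 on log2(TPM + 0.1), 5 in 1 fit of all 33 libraries, and 1 to 2 when leaving out each replicate. In OVCAR4 ResA against OVCAR4 (4 genes) it was 0 with edgeR and 0 with limma at either pseudocount, and 1 to 6 when leaving out each replicate. In OVCAR4 ResB against OVCAR4 (4 genes) it was 0 with limma on log2(TPM + 1), 2 on log2(TPM + 0.1), and 2 to 5 when leaving out each replicate. In OVCAR3 ResB against OVCAR3 ResA (3 genes) it was 0 with limma at either pseudocount, 7 in the fit of 33 libraries, and 2 to 5 when leaving out each replicate. In OVCAR4 ResB against OVCAR4 ResA (6 genes) it was 3 to 4 when leaving out each replicate. Between all resistant and all sensitive lines (0 genes) it was 0 to 1 when leaving out each replicate. In these the cause was not tested. Omitting the replicate block, the pairing term, gained 6 calls in all and lost none. With 3 libraries a line, 1 library can decide a call. The count of genes whose change differed between pairs (9) was 6 to 8 when leaving out each replicate. Genes of few counts, ACTG2, CNN1 outside 3 lines and LMOD1 outside the OVCAR4 family, were at a depth where only large changes can be seen. Rescaling TPM by median of ratios moved 12 of 110 line levels by more than their SD, and taking the 4 muscle actins together in place of ACTA2 moved 4 of 11.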

Other observations

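FHL1 and FHL2, LIM-domain proteins that partner SRF and are among its targets, were picked from the list of SRF and MRTF targets after their values were seen. FHL2 stood at 16.7 TPM ± 2.69 (SD, n = 3) in OVCAR3, 569.5 TPM ± 33.2 in OVCAR3 ResA and 109 TPM ± 41.1 in OVCAR3 ResB, which is the reverse order of MYL9 in that family. The rise of FHL2 passed the test in OVCAR3 ResA (log2 4.94 ± 0.11) and in OVCAR3 ResB (2.55 ± 0.33, DESeq2 adjusted p = 3.73e-12). FHL1 stood at 2.54 TPM ± 0.389 in OVCAR4, 7.36 TPM ± 2.13 in OVCAR4 ResA and 37.9 TPM ± 12.1 in OVCAR4 ResB, an order shared with MYLK. OVCAR4 ResB exceeded OVCAR4 ResA in FHL1 by 2.31 ± 0.16 (DESeq2 adjusted p = 2.68e-47), while FHL2 was lower there by -1.37 ± 0.14 (DESeq2 adjusted p = 4.23e-22).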
